A study of Homo sapiens with 18 samples.

Results

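The UGT2B androgen glucuronidation enzymes were followed across 18 gene-level arrays of LNCaP and VCaP, both lines of androgen-responsive human prostate cancer cells. The genes were UGT2B7, UGT2B10, UGT2B11, UGT2B15, UGT2B17 and UGT2B28, and a transcript cluster (the probe group that the array summarises to 1 value) was taken as a member when its platform annotation was or included any of the 6. This gave 8 transcript clusters of 33297 on the array, of which 21214 carry a gene symbol. Both clusters annotated to UGT2B15 and UGT2B17 hold identical values on every array and were counted once, which left 7 distinct rows of values.

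Of those rows, 4 carry 1 symbol each: UGT2B7, UGT2B10, UGT2B17 and UGT2B28. The other rows carry several and are named here UGT2B15/17, the 5-gene cluster (UGT2B7, UGT2B10, UGT2B11, UGT2B15 and UGT2B17) and the 7-gene cluster (UGT2B4, UGT2B7, UGT2B10, UGT2B11, UGT2B17, UGT2B28 and LOC101929773). UGT2B11 and UGT2B15 have no row of their own, so their levels were read only together with relatives. Some of the genes are near-identical relatives, so signal from one may be read by a probe for another. Even a row with 1 symbol is uncertain in that respect.

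Each line was transfected 48 h before hormone with siControl (a control siRNA), siCTBP1-AS, which targets an antisense RNA of the corepressor gene CTBP1, or siPSF, which targets the paraspeckle and splicing protein PSF, product of the gene SFPQ. The cells were kept for 3 days in hormone-depleted serum, at 2.5% for LNCaP and 5% for VCaP, and then received R1881, a synthetic androgen, or its ethanol vehicle. R1881 was given at 10 nM in LNCaP set 1 (siControl and siCTBP1-AS) and in LNCaP set 3 (siControl and siPSF). It was given at 1 nM in LNCaP set 2 (siControl and siCTBP1-AS, both marked #2 in the labels) and in VCaP (siControl, siPSF and siCTBP1-AS marked #2), so siControl had 3 arrays per treatment in LNCaP and every siRNA had 1 array per treatment in each set that holds it. What the #2 marks stand for, and for how long hormone was present, is not stated in the labels, and set and dose cannot be told apart within LNCaP. The labels name no separate cultures, so the p-values reflect the spread among these arrays alone, and that spread may be technical. In the R1881 fits over pairs, pairs with different siRNAs stood in as replicates, and in LNCaP also pairs of different sets and doses. For siPSF over both lines, the lines stood in as replicates. The p-values of these fits therefore do not measure the spread among repeats of 1 condition.

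Enzymes of the UGT2B family sit in the endoplasmic reticulum and attach glucuronic acid, taken from UDP-glucuronic acid, to lipophilic molecules, which makes them soluble and ready for export. UGT2B15 and UGT2B17 conjugate dihydrotestosterone and its metabolites and are the main androgen-conjugating forms of the prostate, where they end the hormone's action in the cell. Repression of both by androgen is long known from LNCaP cells. UGT2B28 and UGT2B11 are close relatives expressed in liver and in steroid target tissue, UGT2B7 conjugates many drugs and steroids, and UGT2B10 is best known for joining glucuronic acid to the nitrogen of drugs.

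The genes lie side by side on chromosome 4, in the RefSeq order UGT2B17, UGT2B15, UGT2B10, UGT2A3, UGT2B7, UGT2B11, UGT2B28 and UGT2B4. Promoter sequence was found for 4 of the 6 genes. It covers the 250 bases before the RefSeq start in GRCh38.p14, 5′ to 3′ along the gene. UGT2B17 and UGT2B28, whose own rows moved in opposite directions with R1881 in LNCaP, have no window here. Of the genes shown, UGT2B11 and UGT2B15 have no row of their own, so the windows are not set against hormone responses. The windows are chr4:69096224-69096473 (plus strand) for UGT2B7, chr4:68815744-68815993 (plus strand) for UGT2B10, chr4:69214749-69214998 (minus strand) for UGT2B11 and chr4:68670653-68670902 (minus strand) for UGT2B15. Capitals mark every match, on either strand, to 5 short motifs: the forkhead cores TGTTTAC and TATTTAC bound by factors such as FOXA1, the androgen receptor half-site AGAACA, the nuclear receptor half-site AGGTCA and the HNF1 half-site GTTAAT.
UGT2B7: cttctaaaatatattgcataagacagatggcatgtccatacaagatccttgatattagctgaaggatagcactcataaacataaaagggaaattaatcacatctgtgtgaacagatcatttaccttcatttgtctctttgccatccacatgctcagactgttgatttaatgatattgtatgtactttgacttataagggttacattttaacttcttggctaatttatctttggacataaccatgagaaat
UGT2B10: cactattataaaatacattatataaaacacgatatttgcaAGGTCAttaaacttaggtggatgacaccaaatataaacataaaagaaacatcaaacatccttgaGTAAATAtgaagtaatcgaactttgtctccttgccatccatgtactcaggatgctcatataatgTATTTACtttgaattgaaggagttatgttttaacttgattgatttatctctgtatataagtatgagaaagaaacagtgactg
UGT2B11: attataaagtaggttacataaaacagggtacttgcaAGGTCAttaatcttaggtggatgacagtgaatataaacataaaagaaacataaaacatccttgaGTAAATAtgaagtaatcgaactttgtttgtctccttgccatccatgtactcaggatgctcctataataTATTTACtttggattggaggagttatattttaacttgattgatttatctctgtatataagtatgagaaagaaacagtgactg
UGT2B15: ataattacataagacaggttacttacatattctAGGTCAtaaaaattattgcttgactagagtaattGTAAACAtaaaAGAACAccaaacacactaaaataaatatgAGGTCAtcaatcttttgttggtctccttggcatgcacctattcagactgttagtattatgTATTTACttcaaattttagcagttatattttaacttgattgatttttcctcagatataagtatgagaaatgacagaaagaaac

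The windows of UGT2B10 and UGT2B11 were the most alike, with 91.6% of bases identical in a pairwise alignment. UGT2B15 shared 72.8% with UGT2B10 and 74.0% with UGT2B11, and UGT2B7 shared 62.8% to 68.0% with the others. TATTTAC stood on the gene's strand 82 bases before the start in UGT2B10 and UGT2B11 and 83 bases before it in UGT2B15. UGT2B10 and UGT2B11 had a second copy on the other strand, at 146 and 150 bases. TATTTAC was present in 2.39% of 35116 RefSeq promoter windows of this length. In the UGT2B15 window TGTTTAC (2.98% of windows) stood on the other strand at 183 bases and AGAACA (12.4% of windows) at 172 bases. AGGTCA (12.1% of windows) was found once in UGT2B10, at 210 bases, once in UGT2B11, at 214, and in UGT2B15 at 217 and 143. The UGT2B7 window held none of the 5 motifs, and GTTAAT (6.23% of windows) was in none of these 4 windows. A match is a string of letters and not a measured site.

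Within a set, arrays correlated at 0.980 to 0.992 over all clusters, and the set medians lay between 5.74 and 6.80 on the log2 scale, so each level is set only against others of its own set. The markers of luminal prostate epithelium averaged 10.14 to 12.46 on the log2 scale in LNCaP and 10.97 to 12.27 in VCaP (5 markers), while those of leukocytes averaged 4.23 to 6.13 and 4.41 to 4.68 (6 markers). SFPQ was at 11.15 and 10.79 with siControl and at 10.47 and 9.89 with siPSF in LNCaP set 3 (vehicle, R1881), and at 11.02 and 11.16 against 9.70 and 9.61 in VCaP. With siPSF it fell over both lines by 1.18 (SE 0.14, limma adjusted p = 0.000827). CTBP1-AS itself is not analysed here, so its knockdown was not checked.

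In LNCaP the family split in direction under R1881. UGT2B28 rose 6.34-fold over 6 pairs of arrays, and the 7-gene cluster that also reads it rose 2.76-fold. UGT2B17 fell 2.50-fold, UGT2B15/17 fell 2.76-fold and the 5-gene cluster fell 1.79-fold. UGT2B10 was not called. These values are log2 signals, a fold is 2 raised to the log2 difference, and a cluster was called where the Benjamini-Hochberg adjusted p over 15910 clusters was under 0.05 in limma.

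UGT2B28 was at 6.56 with vehicle and 9.68 with R1881 in set 1 siControl, and at 6.90 and 10.19 in set 1 siCTBP1-AS. In set 3 it was at 4.74 and 9.62 with siControl and at 4.39 and 7.37 with siPSF. In set 2, at the lower dose, it was at 6.37 and 8.15 with siControl and at 6.83 and 6.75 with siCTBP1-AS. R1881 was therefore higher in 5 of 6 pairs, by 1.78 to 4.88 log2 units, and the siCTBP1-AS pair of set 2 stood apart with a difference of -0.07. Over the 6 pairs the difference was 2.67 (SE 0.51, 95% interval 1.50 to 3.83, limma adjusted p = 0.0100).

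The 7-gene cluster, like UGT2B28, was higher with R1881 in 5 of 6 pairs. It was at 9.94 and 12.08 with vehicle and R1881 in set 1 siControl, at 10.92 and 12.63 in set 1 siCTBP1-AS, at 9.11 and 11.93 in set 3 siControl and at 8.54 and 10.40 in set 3 siPSF. In set 2 it was at 10.38 and 10.98 with siControl and at 10.76 and 10.44 with siCTBP1-AS, and this pair was again the only one that was lower. The difference over 6 pairs was 1.47 (SE 0.35, limma adjusted p = 0.0240), a call that was lost when any 1 of 4 pairs was left out (1.19 to 1.42 without the set 1 pairs or the set 3 pairs, taken singly).

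UGT2B17, which conjugates dihydrotestosterone, went the other way in all 6 pairs. With vehicle and R1881 it was at 7.37 and 6.28 in set 1 siControl, 7.06 and 6.26 in set 1 siCTBP1-AS, 7.66 and 5.82 in set 2 siControl and 8.39 and 7.39 in set 2 siCTBP1-AS. In set 3 it was at 7.28 and 6.04 with siControl and at 7.78 and 5.81 with siPSF. The smallest loss was 0.80 log2 units and the largest 1.97, and over 6 pairs UGT2B17 fell by 1.32 (SE 0.15, 95% interval -1.67 to -0.97, limma adjusted p = 0.00109).

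UGT2B15/17 reads both main androgen-conjugating enzymes. With vehicle it was at 12.38, 12.49, 12.80, 12.70, 12.33 and 11.68 in set 1 siControl, set 1 siCTBP1-AS, set 2 siControl, set 2 siCTBP1-AS, set 3 siControl and set 3 siPSF, and with R1881 at 11.10, 11.37, 10.94, 12.35, 10.53 and 9.28 in the same order. All 6 pairs were lower with R1881, by 0.35 in set 2 siCTBP1-AS and by up to 2.40 in set 3 siPSF, and over the pairs it fell by 1.47 (SE 0.22, limma adjusted p = 0.00367). The 5-gene cluster was lower in 6 of 6 pairs as well, by 0.06 to 1.89, and fell by 0.84 (SE 0.22, limma adjusted p = 0.0357). That call was lost without the set 2 siControl pair (-0.72) and without either pair of set 3 (-0.83 and -0.63), and also when clusters without a symbol were included (adjusted p = 0.0641).

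UGT2B10 was at 6.74 and 6.70 with vehicle and R1881 in set 1 siControl, 6.46 and 5.92 in set 2 siControl and 5.52 and 5.50 in set 3 siControl. Its difference over 6 pairs was -0.13 (95% interval -0.39 to 0.13, limma adjusted p = 0.480), with 5 pairs lower and 1 higher. UGT2B7 lay between 3.24 and 4.15 on every LNCaP array, in the lowest 25% of clusters that was left out of the fits, and has no test there. In this comparison 5 of the 6 member rows tested were called, against 15.8% of all clusters. The 2 higher calls stand beside 7.83% of all clusters and the 3 lower calls beside 7.93%, and the median difference was -0.49 over the members and -0.02 over all clusters. Rows that list the same genes are not separate members. At 1 cluster per gene 2 of 3 members were called, against 15.5% of all clusters tested that way.

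**Figure D1:**
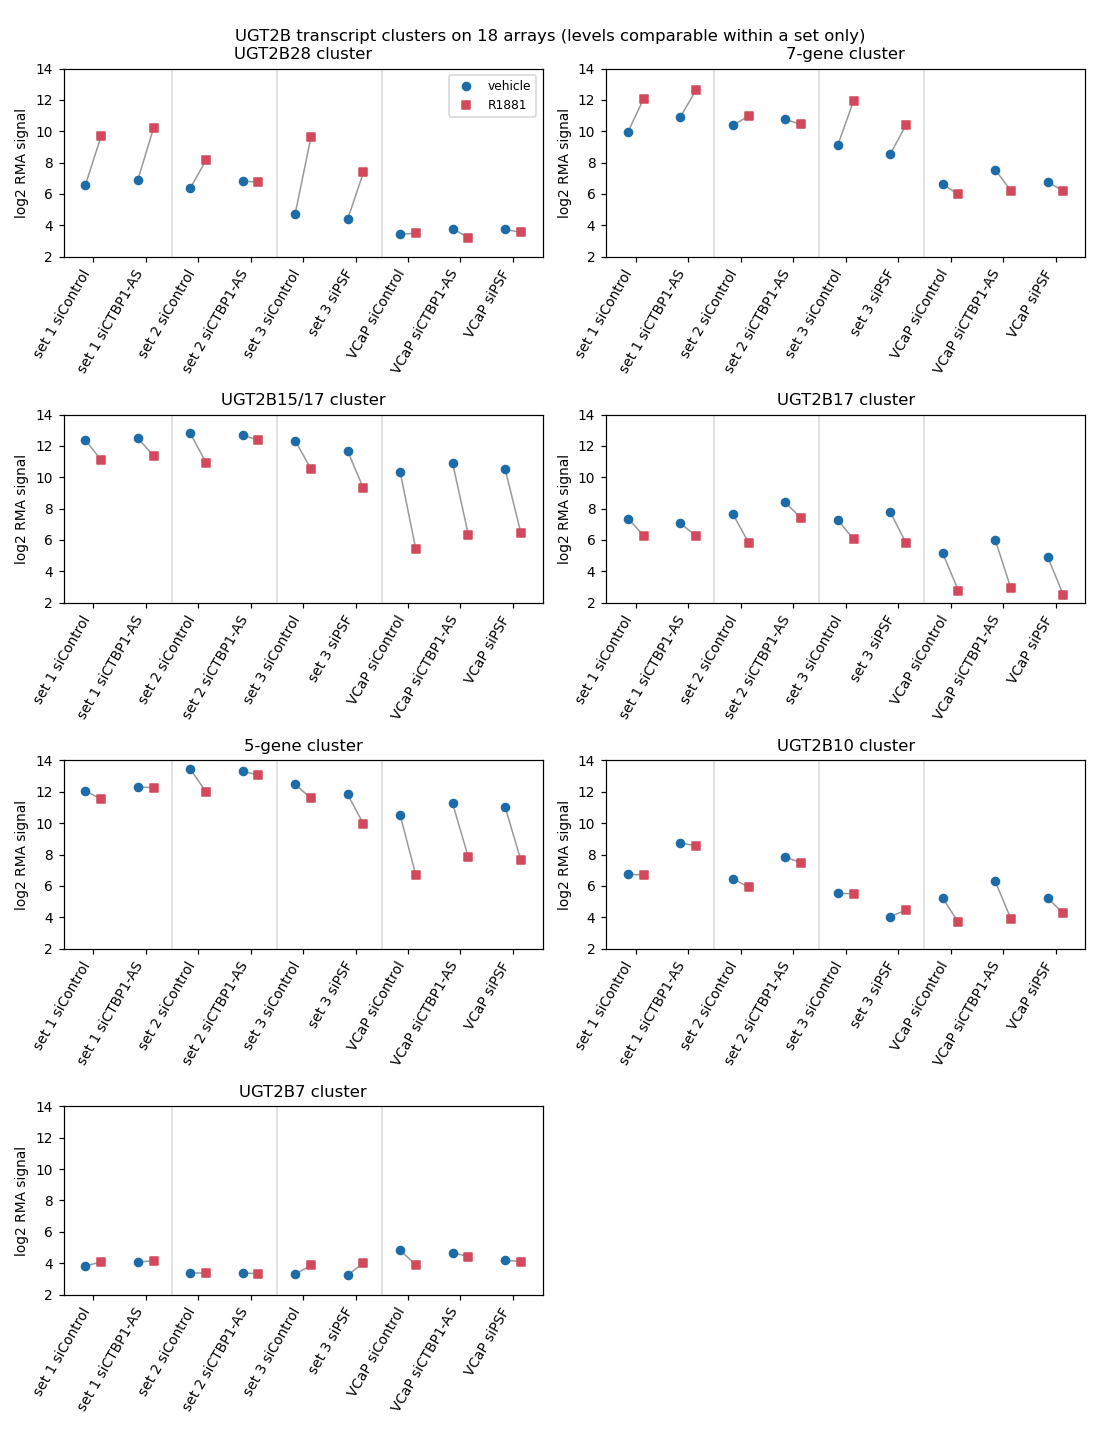
Log2 signal of the 7 member rows on all 18 arrays, 1 panel per row of values, with the arrays ordered by set and siRNA and the treatment marked by the symbol. UGT2B28 lies far higher with R1881 in LNCaP sets 1 and 3, up to 10.19, while UGT2B15/17 drops from above 10 to between 5.40 and 6.47 in VCaP.

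Restricted to the 3 siControl arrays per treatment, and without a block for the set, only UGT2B28 was called, with a difference of 3.26 (SE 0.56, limma adjusted p = 0.0190). That was 1 of 6 member rows against 0.264% of all clusters, and the call was lost without set 2 (4.00, adjusted p = 0.394) and without set 3 (2.45, adjusted p = 1.00). The replicate numbers pair these arrays by set, and with the replicate block 4 of 6 were called against 4.75% of all clusters. UGT2B28 had an adjusted p of 0.0235 there, UGT2B17 0.00874, UGT2B15/17 0.00331 and the 5-gene cluster 0.0411 (limma).

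In VCaP the fall of UGT2B15/17 was far deeper and no member was called higher. UGT2B15/17 fell 23.2-fold over 3 pairs and the 5-gene cluster fell 11.8-fold. UGT2B28 lay between 3.22 and 3.78 on all 6 VCaP arrays.

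UGT2B15/17 was at 10.35 with vehicle and 5.40 with R1881 in siControl, at 10.91 and 6.33 in siCTBP1-AS and at 10.53 and 6.47 in siPSF. It fell by 4.53 (SE 0.16, 95% interval -4.91 to -4.16, limma adjusted p = 1.36e-05). The 5-gene cluster was at 10.52 and 6.68, 11.27 and 7.82, and 11.04 and 7.66 in the same order and fell by 3.56 (SE 0.12, limma adjusted p = 1.36e-05). The 7-gene cluster was at 6.62 and 5.98, 7.55 and 6.21, and 6.79 and 6.17. It fell by 0.87 (SE 0.15, limma adjusted p = 0.00507), so this row fell in VCaP and rose in LNCaP. Which of its listed genes gave the signal in each line was not resolved, so this is not read as 1 transcript changing direction.

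All 3 rows tested in VCaP were called, all lower, against 28.2% of all clusters in either direction and 15.2% lower, and their median difference was -3.56 against 0.00 over all clusters. The other 4 rows were among the lowest 25% of clusters in VCaP and were tested only with that filter lifted. UGT2B17 was then at 5.15, 6.02 and 4.93 with vehicle in siControl, siCTBP1-AS and siPSF and at 2.76, 2.91 and 2.48 with R1881, and fell by 2.65 (SE 0.15, limma adjusted p = 8.44e-05). On the R1881 arrays it ranked within the lowest 0.51% of clusters with a symbol, at the floor of the scale, so this size is read as a lower bound. UGT2B10 was at 5.21, 6.30 and 5.22 with vehicle and at 3.67, 3.90 and 4.25 with R1881, and fell by 1.64 (SE 0.23, limma adjusted p = 0.00275). UGT2B7 lay between 3.88 and 4.82 on the 6 VCaP arrays and had a difference of -0.43 (adjusted p = 0.112) and UGT2B28 of -0.23 (adjusted p = 0.309). With the filter lifted, 5 of 7 rows were called against 19.0% of all clusters.

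In VCaP 3 marker genes of liver and fibroblasts fell in the same contrast. ALB, the serum albumin of liver cells, was at 8.89 to 11.25 with vehicle and 7.53 to 9.60 with R1881 and fell by 1.66, TTR fell by 2.16, and LUM, a matrix proteoglycan of fibroblasts, fell by 3.87. These were 2 of 5 tested liver markers (10 on the list) and 1 of 4 tested fibroblast markers (6 on the list), and the median differences over the tested markers were 0.07 and 0.02. Of 3 tested leukocyte markers (6 on the list) 1 was called, higher by 0.41, and their median difference was -0.02. The liver list averaged 5.69 to 5.97 with vehicle and 5.38 to 5.67 with R1881, and the fibroblast list 5.85 to 6.10 and 5.22 to 5.50. In LNCaP ALB lay between 3.61 and 4.91 and 0 of the 4 liver markers tested were called. The part of these genes in the UGT2B values was not tested, and in bulk samples fewer cells of a type and less RNA per cell cannot be told apart.

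**Figure D2:**
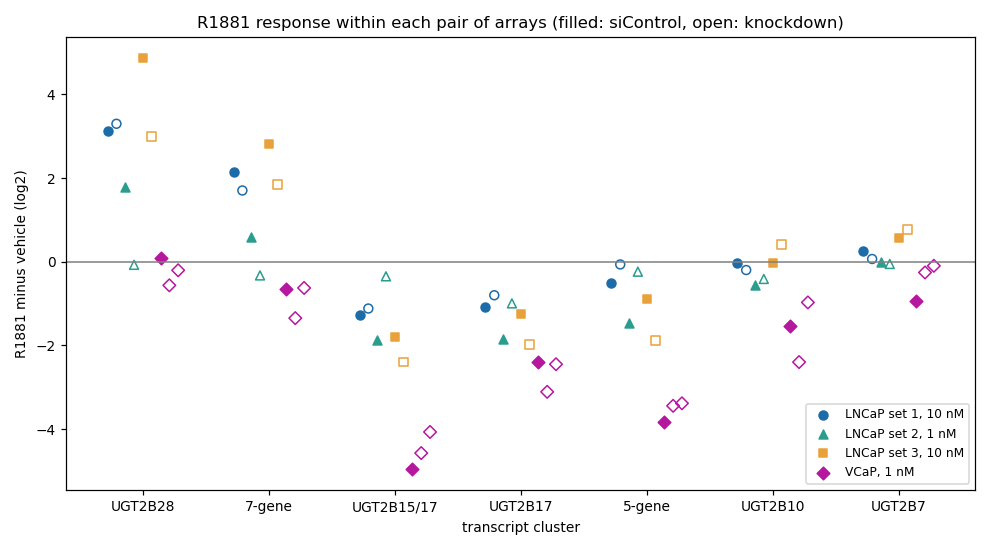
Difference between R1881 and vehicle on the log2 scale for each member row, 1 point per pair of arrays in LNCaP sets 1, 2 and 3 and in VCaP. UGT2B28 and the 7-gene cluster lie above 0 in 5 of 6 LNCaP pairs, and UGT2B15/17 lies between -2.40 and -0.35 in LNCaP and between -4.96 and -4.07 in VCaP.

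The difference between the lines was tested directly over 9 pairs as the VCaP minus the LNCaP response. Of the 6 rows that entered this fit, only UGT2B15/17, the 5-gene cluster and the 7-gene cluster had also passed the filter in VCaP. UGT2B28, UGT2B17 and UGT2B10 passed through their LNCaP levels, so the count of rows is not read as a result. All 6 were called lower in VCaP, where 10.9% of all clusters were called and 5.93% were called lower. UGT2B15/17 differed by -3.07 (SE 0.37, limma adjusted p = 0.000517) and the 5-gene cluster by -2.71 (SE 0.35, limma adjusted p = 0.000847). The 7-gene cluster differed by -2.34 (SE 0.55, adjusted p = 0.0215). UGT2B10 differed by -1.50 (SE 0.28, adjusted p = 0.00634) and UGT2B17 by -1.33 (SE 0.26, adjusted p = 0.00968). With R1881 in VCaP UGT2B10 lay at 3.67 to 4.25 and UGT2B17 at 2.48 to 2.91, near the low end of the array. The sizes of both differences are therefore uncertain. Since both rows entered through LNCaP, their calls are not read as support. For UGT2B28 the value was -2.89 (SE 0.79, adjusted p = 0.0392), but its VCaP levels lie near the low end of the array with either treatment and could not show a fall, so this value mainly restates the LNCaP rise.

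VCaP received 1 nM and most of LNCaP 10 nM, and the serum also differed, so line and serum cannot be told apart in this comparison. With only the sets at 1 nM (LNCaP set 2 and VCaP), an alternative chosen after seeing the data, UGT2B15/17 differed by -3.43 (limma adjusted p = 0.00540) and the 5-gene cluster by -2.71 (adjusted p = 0.00536), and 2 member rows were called against 5.11% of all clusters. At that dose UGT2B17 differed by -1.23 (adjusted p = 0.0575), UGT2B10 by -1.16 (adjusted p = 0.117) and the 7-gene cluster by -1.01 (adjusted p = 0.121), and UGT2B28 was below the filter. Leaving out the VCaP siCTBP1-AS pair took 3 of the 6 calls, those of UGT2B28, UGT2B17 and the 7-gene cluster. The call of UGT2B28 was lost with any of 6 pairs left out singly, at adjusted p up to 0.126, and that of the 7-gene cluster with any of the 3 VCaP pairs left out. In the siControl arrays alone, UGT2B15/17 and the 5-gene cluster were called, 2 rows against 0.509% of all clusters.

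With siCTBP1-AS, 1 member row was called in LNCaP. UGT2B10, the enzyme that conjugates drug nitrogens, rose 3.24-fold with siCTBP1-AS, at either dose and with either treatment. In set 1 it was at 6.74 with siControl and 8.75 with siCTBP1-AS under vehicle, and at 6.70 and 8.55 under R1881. In set 2 it was at 6.46 and 7.86 under vehicle and at 5.92 and 7.45 under R1881. All 4 differences were higher, by 1.40 to 2.01. The mean difference was 1.70 (SE 0.14, 95% interval 1.37 to 2.02, limma adjusted p = 0.00539), and fitted on sets 1 and 2 alone it had an adjusted p of 0.0218. The differences were 2.01 and 1.85 in set 1 and 1.40 and 1.54 in set 2 (vehicle, R1881). They come from 2 sets only, with the treatments of a set counted separately, so the SE and interval may be too narrow.

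That was 1 of 6 member rows against 0.805% of all clusters, 0.528% higher, with a median of 0.45 over the members and -0.01 over all clusters. The 5-gene cluster differed by 0.47 (95% interval 0.14 to 0.81, limma adjusted p = 0.175), UGT2B15/17 by 0.42 (0.03 to 0.82, adjusted p = 0.258) and the 7-gene cluster by 0.34 (-0.64 to 1.32, adjusted p = 0.728). UGT2B28 differed by -0.02, with an interval from -1.43 to 1.40. UGT2B17 differed by 0.49 (adjusted p = 0.396), from -0.31 and -0.03 in set 1 and 0.73 and 1.57 in set 2, and passed the test when only set 2 supplied the siCTBP1-AS arrays (1.15, adjusted p = 0.0279).

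Interferon-stimulated genes moved with siCTBP1-AS in the same LNCaP arrays. Of 9 tested, 6 were called higher and 0 lower, against 0.528% of all clusters called higher. Their median difference was 3.73 and the lowest 0.39. The same list was also higher with siPSF over both lines, with a median of 2.03 (0.99 to 3.76). There 1 of 9 was called higher, against 0.201% of all clusters. IFIT1 and OAS1, both antiviral effectors, rose by 4.33 (SE 0.36) and 3.73 (SE 0.34). AKR1C1 and AKR1C2, near-identical aldo-keto reductases that inactivate dihydrotestosterone and progesterone, rose by 2.53 (SE 0.27, limma adjusted p = 0.0135) and 2.40 (SE 0.29, adjusted p = 0.0169). They were the 2 called of 16 tested enzymes of androgen synthesis and conversion. The part of the interferon genes in the UGT2B10 value was not tested.

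In VCaP UGT2B10 differed between siCTBP1-AS and siControl by 1.08 under vehicle and 0.23 under R1881. Under R1881 it was at 3.67 with siControl and 3.90 with siCTBP1-AS, near the low end of the array, so the size of that difference is uncertain. Over both lines its difference was 1.18 (SE 0.29, limma adjusted p = 0.0744) and 0 of 6 member rows were called against 0.490% of all clusters, although 2 had an unadjusted p under the threshold. With only the sets that hold siCTBP1-AS, UGT2B10 was called (1.35, adjusted p = 0.0387), and it was called again without the VCaP siCTBP1-AS arrays (1.70, adjusted p = 0.0206). The VCaP minus LNCaP difference of this effect, a fit added after seeing the data, was -1.04 (SE 0.25, adjusted p = 0.173). It rests in part on those low VCaP levels.

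Knockdown of PSF called no member over both lines (0 of 6 against 1.33% of all clusters, limma, and 0 at an unadjusted p under the threshold). In most rows the lines lay on opposite sides of 0, a pattern whose share over all clusters was not counted. In LNCaP set 3, siPSF was below siControl in UGT2B10 by 1.48 under vehicle and 1.05 under R1881. In VCaP it was above by 0.00 and 0.57. UGT2B15/17 differed by -0.65 and -1.25 in LNCaP and by 0.18 and 1.07 in VCaP, and the 5-gene cluster by -0.64 and -1.64 against 0.52 and 0.98. UGT2B28 differed by -0.35 and -2.24 in LNCaP and by 0.34 and 0.04 in VCaP, and the 7-gene cluster by -0.57 and -1.53 against 0.17 and 0.19. UGT2B17 differed by 0.50 and -0.23 in LNCaP and by -0.22 and -0.29 in VCaP.

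The difference between the lines in the siPSF effect was tested in a fit added after seeing the data. It was 1.55 for UGT2B10 (95% interval 0.92 to 2.19, limma adjusted p = 0.0956), 1.89 for the 5-gene cluster (1.00 to 2.79, adjusted p = 0.118) and 1.57 for UGT2B15/17 (0.50 to 2.64, adjusted p = 0.248). None of the 6 rows passed, although 3 had an unadjusted p under the threshold, and 0.0629% of all clusters did. VCaP and LNCaP have 1 array of siPSF per treatment each.

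**Figure D3:**
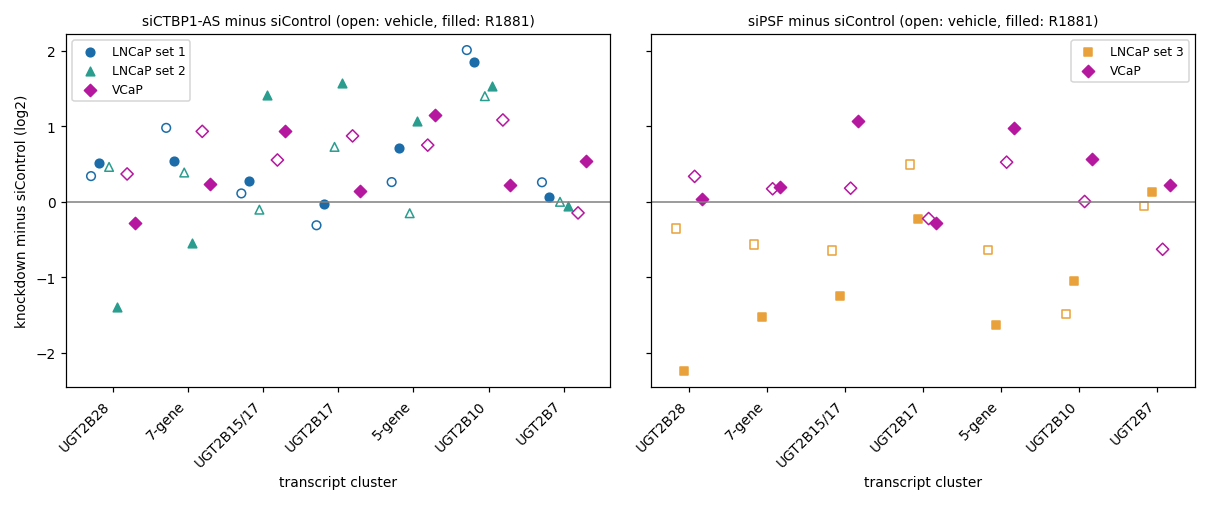
Difference between knockdown and siControl on the log2 scale for each member row, 1 point per set and treatment, for siCTBP1-AS and for siPSF. UGT2B10 lies between 1.40 and 2.01 in the 4 LNCaP comparisons of siCTBP1-AS, and with siPSF the LNCaP points of UGT2B15/17 and the 5-gene cluster lie below 0 and the VCaP points above.

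Whether either knockdown changed the R1881 response was tested with product terms over all 18 arrays. No member and no other cluster passed for siCTBP1-AS (0% of all clusters, 558 at an unadjusted p under the threshold) or for siPSF (0% and 312), in limma. The intervals were wide. The R1881 response of UGT2B28 differed by -1.34 with siCTBP1-AS (95% interval -3.16 to 0.47), that of the 7-gene cluster by -1.02 (-2.31 to 0.26) and that of UGT2B15/17 by 0.72 (-0.34 to 1.77). With siPSF the response of UGT2B28 differed by -0.37 (-2.47 to 1.73).

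Across the 18 arrays, with each set's mean subtracted, the rows fell into 2 groups by how they varied. UGT2B15/17 correlated at 0.98 with the 5-gene cluster and at 0.92 with UGT2B17, and UGT2B28 at 0.93 with the 7-gene cluster. UGT2B28 and UGT2B17 correlated at -0.44. UGT2B10 lay nearest to the 5-gene cluster, at 0.70. These are descriptions over arrays that share treatments and siRNAs, and rows that list the same genes can share probes or targets.

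The clusters most like each member were found in the same way. For UGT2B28 the nearest was MEIS1, a homeobox transcription factor, at 0.94, followed by SCARB2 at 0.91. MEIS1 was also nearest to the 7-gene cluster, at 0.95, where HSD17B11, a short-chain dehydrogenase that oxidises androgen metabolites, reached 0.85. For UGT2B17 the nearest were STXBP6 at 0.96 and SYTL2, a protein of vesicle traffic, at 0.94. SYTL2 reached 0.95 with UGT2B15/17, for which a cluster annotated to MIR99A was nearest at 0.96. For UGT2B10 the nearest was POF1B at 0.92.

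The other genes of the pathway are read against the share of all clusters called with R1881, 15.8% in LNCaP and 28.2% in VCaP, and shares near these say little about a list. Among the carriers, ABCC4, which exports steroid conjugates and other organic anions, rose with R1881 by 1.85 in LNCaP (SE 0.06, limma adjusted p = 2.37e-06) and by 1.71 in VCaP (SE 0.10, adjusted p = 6.83e-05). ABCC1 rose by 1.27 and 0.84. Of the transport list, 2 of 5 tested rose and 0 fell in LNCaP, and 2 of 4 rose and 1, ABCC3, fell by 0.59 in VCaP.

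Of the genes that supply UDP-glucuronic acid or remove glucuronides, 1 was called in each line, against those shares. It was GUSB, the lysosomal beta-glucuronidase that splits glucuronides, which fell by 0.27 in LNCaP (1 of 4) and 0.33 in VCaP (1 of 5). Of the other UGT genes, 0 of 1 tested was called in LNCaP and 2 of 4 fell in VCaP: UGT8, which makes galactosylceramide, by 1.17 (SE 0.10), and UGT3A2 by 0.54 (SE 0.13). In steroid sulfation STS, the sulfatase that frees steroids from their sulfates, rose by 0.59 in LNCaP (1 of 5, none fell) and by 1.18 in VCaP. PAPSS2, which makes the sulfate donor, fell by 1.21 in VCaP.

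Of 16 tested enzymes of androgen synthesis and conversion, against the same 15.8% and 28.2%, 1 rose and 2 fell in LNCaP and 2 rose and 5 fell in VCaP. In VCaP HSD17B6, which can oxidise an androgen metabolite back to dihydrotestosterone, fell by 1.66 (SE 0.16, limma adjusted p = 0.000449). HSD17B2, which oxidises testosterone, rose there by 0.83 (SE 0.09, adjusted p = 0.000733). Of 8 tested regulators, against the same shares, 0 rose and 1 fell in LNCaP and 1 rose and 2 fell in VCaP, with GATA2, a partner of the androgen receptor in prostate cells, falling by 0.51 and 0.54. All 8 androgen-induced reference genes rose in both lines, with medians of 2.51 in LNCaP and 1.39 in VCaP.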

How the data were processed

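Each deposited value is the log2 signal of a transcript cluster; the submitters' processing notes name RMA and Affymetrix Expression Console 1.1.1. The grouping of arrays for RMA is not stated, and the number of arrays limits the precision. Of 33297 clusters, 19460 have 1 symbol in the platform annotation, 1754 several and 12083 none; only the UGT2B rows are named from clusters with several. A set is the arrays that the labels number together. The 25% of clusters with a symbol and the lowest mean over a fit's arrays were left out. Tests used limma 3.58.1 in R 4.3.3 (lmFit, eBayes, Benjamini-Hochberg at 0.05), tested on simulated data. R1881 responses used the array pair as a block, except the siControl fit, which has none. Knockdown effects used the set as a block, with terms for R1881, each siRNA and their products. The replicate numbers of siControl pair arrays by set: after group means were removed, vehicle and R1881 arrays correlated at 0.79, 0.84 and 0.72 with the same number and at -0.62 to -0.12 with another. Every member row was named in every comparison; genes of the pathway lists were counted and named where they passed; the nearest clusters are the 5 with the highest correlation. Members and lists were chosen with earlier results of these data known. Alternatives were the filter, unnamed clusters, centring, an intensity trend, 1 cluster per gene, other blocks, fewer sets and each pair left out.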

Additional observations from a re-analysis of the deposited data

Results flagged for a closer look

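In a direct test of VCaP minus LNCaP on the log2 scale, the R1881 response was called lower in VCaP in 6 member rows. Of all clusters 10.9% were called in this test and 5.93% were called lower. The differences were -3.07 for UGT2B15/17, -2.89 for UGT2B28, -2.71 for the 5-gene cluster, -2.34 for the 7-gene cluster, -1.50 for UGT2B10 and -1.33 for UGT2B17, each with a limma adjusted p under the threshold. UGT2B28, UGT2B10 and UGT2B17 were below the filter on low values in VCaP and entered this test through their LNCaP levels. The count of rows is therefore not read as a result. UGT2B28 was near the low end of the array on every VCaP array, and UGT2B10 and UGT2B17 were near it on the VCaP arrays with R1881.

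The siPSF effect had opposite signs in the lines, with both LNCaP comparisons below 0 and both VCaP comparisons above, in 5 rows. The share of all clusters with this pattern was not counted, so the number of rows is not read as a result. Rows that list the same genes can share probes, and each line has 1 array of siPSF per treatment. The smallest VCaP values were 0.00 for UGT2B10 under vehicle and 0.04 for UGT2B28 under R1881. The VCaP minus LNCaP differences were 1.89 for the 5-gene cluster, 1.57 for UGT2B15/17, 1.55 for UGT2B10, 1.49 for UGT2B28 and 1.23 for the 7-gene cluster, and none passed after adjustment. The VCaP levels of UGT2B28 and UGT2B10 are low here too.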

How the results depend on the processing

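Over the fits of single member rows, 438 of 488 alternative values kept their direction and their side of the threshold, 30 lost the call, 8 gained it and 12 changed sign. In the siControl fit of LNCaP the members called went from 1 to 0 with unnamed clusters included or arrays centred on their median, 3 with an intensity trend and 4 with the replicate block, which pairs the arrays by set (755 clusters called in all, against 42), and to 0 to 1 with each replicate left out. In the 6 pairs of LNCaP it went from 5 to 2 at 1 cluster per gene and 3 to 5 with a pair left out. In VCaP it went from 3 to 5 with no filter and 0 at 1 cluster per gene. For VCaP minus LNCaP it went from 6 to 3 at 1 cluster per gene, 2 with siControl only, 2 with only the sets at 1 nM and 3 to 6 with a pair left out. At 1 cluster per gene the rows with several symbols are left out by construction. For siCTBP1-AS it was 1 to 2 in LNCaP with a set's arrays left out, and over both lines 1 with only the sets that hold it and 0 to 1 with a set's arrays left out. No value that changed sign was called. With the siCTBP1-AS arrays of a set left out in LNCaP, the 7-gene cluster ranged from -0.076 to 0.76, UGT2B28 from -0.47 to 0.43 and UGT2B17 from -0.17 to 1.15. Over both lines UGT2B28 ranged from -0.39 to 0.024, and was at 0.0012 with only the sets that hold siCTBP1-AS. With the siPSF arrays of a set left out, UGT2B10 ranged from -1.27 to 0.64, UGT2B28 from -1.30 to 0.17, UGT2B15/17 from -0.95 to 0.52, the 5-gene cluster from -1.14 to 0.59, the 7-gene cluster from -1.05 to 0.10 and UGT2B17 from -0.26 to 0.13. The VCaP minus LNCaP difference of siCTBP1-AS for UGT2B17 was -0.00073 with centred arrays. The cause was not tested.

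Over all clusters, the count called moved by more than 1.5 times as follows. For siControl it was 42, with 12 including unnamed clusters, 101 with an intensity trend and 0 to 28 with a replicate left out. For LNCaP over 6 pairs it was 2507, with 1614 with the set as a block and 1446 to 2462 with a pair left out, and for VCaP 4483, with 2957 to 3301. For VCaP minus LNCaP it was 1733, with 81 for siControl, 813 at 1 nM and 590 to 1775 with a pair left out. For siCTBP1-AS in LNCaP it was 128, with 69 on sets 1 and 2 and 203 to 1166 with arrays left out, and over both lines 78, with 43 without the filter, 23 with unnamed clusters, 144 centred and 23 to 311 with arrays left out. For siPSF it was 212, with 62 on only the sets that hold it and 61 without VCaP. For the VCaP minus LNCaP difference of siPSF it was 10, with 29 without the filter and 22 at 1 cluster per gene, and for that of siCTBP1-AS 16, with 3 including unnamed clusters.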
